A study of Arabidopsis thaliana with 9 samples.

Results

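The genes described here had a raised transcript level in 2 transgenic lines of Arabidopsis thaliana at once. A gene was taken if its probe set named exactly 1 gene, if the mean signal was at least 100 in both lines, and if the mean signal plus 16, divided by that of wild type plus 16, was at least 1.8 in both lines. This ratio is called the fold throughout. Of 13513 probe sets that name 1 gene, 68 met these conditions (0.503%). A set of 9 genes was left out by name, and 8 of them had met the conditions. The other 60 probe sets, 1 for each of 60 genes, are the genes of this account. The genes were chosen by the group mean signals of both comparisons with wild type, so the folds are given as a description, without a test. Both folds also share the same wild type arrays. Just inside the threshold lay AT3G21670, GH9B8 and AT1G10900, whose smaller folds were 1.806, 1.811 and 1.824. Just outside lay AT1G44000, AT4G16140 and AT5G64850, with smaller folds of 1.798, 1.797 and 1.794.

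Every plant was a seedling of the ecotype labelled col 1, raised for 21 days on 0.5-strength MS medium with no antibiotic selection and sampled without treatment. The 3 groups were untransformed wild type, transgenic line 22 with the rice gene OsSAP11, and transgenic line 25 with the rice gene OsRLCK253, each with 3 arrays that the labels call biological replicates. OsRLCK253 is a receptor-like cytoplasmic kinase, a kinase without an extracellular domain, and OsSAP11 belongs to the zinc finger proteins called stress-associated proteins. The transgenes themselves were not analysed here. The promoter that drives each transgene is not given in the sources used here, and with 1 line per gene a line and its transgene cannot be told apart.

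The genes belong to several branches of plant biology, and they are ordered below by what they do. Growing plant cells loosen their walls with expansins and with enzymes that cut and rejoin xyloglucan, while pectin methylesterases alter the pectin between the cellulose fibres. Glycosyltransferases and acyltransferases decorate flavonoids and other small molecules, which changes their solubility and storage. Ascorbate, reductases of reactive carbonyls and small thiol proteins buffer oxidation, chiefly in photosynthetic tissue. Proteases of the vacuole and of the cell wall mature or degrade proteins, and transporters of the NPF family carry nitrate, peptides or hormones across membranes. Only 14 of the 60 genes carry a symbol beyond the locus code. The functions stated for locus codes are general knowledge of the Arabidopsis annotation, and 24 genes were assigned to no group.

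The arrays had median signals from 43.2 to 46.5, and the log2 signals of arrays of the same group correlated at 0.993 to 0.997 across probe sets. The labelled tissue was checked against markers. All 5 measured genes of light harvesting and carbon fixation had group means above 100, and RCA, the rubisco activase gene, had 18604 ± 1581 (SD, n = 3) for wild type. The signals of these 5 genes summed to 56512 to 61585 on the wild type arrays, 72418 to 78710 on the OsSAP11 arrays and 76662 to 79385 on the OsRLCK253 arrays, so both lines lay above wild type. For 3 root markers the sums overlapped, at 6152 to 7818, 6332 to 7832 and 6548 to 9143. Most of that sum was PYK10, a glucosidase gene of root and hypocotyl. EXPA7, a root hair expansin gene, was dim, with 7.34 ± 1.68 (SD, n = 3) for wild type and 23.5 ± 8.34 for OsRLCK253. It was called higher in the OsRLCK253 line (log2 change 0.74, adjusted p = 0.0389 by limma), a call lost in 9 of the 16 other settings that tested it. For 3 epidermal markers the sums were 81.4 to 104, 97.5 to 115 and 180 to 200.3, and TRY, a repressor gene of trichome formation, was called higher in the OsRLCK253 line (1.70, adjusted p = 0.00068 by limma). TRY had 20.6 ± 5.85 (SD, n = 3) for wild type and 102 ± 11.6 for OsRLCK253, most of the rise in that sum. The other markers, FMA and SPCH, had -0.02 and 0.31 in the OsRLCK253 line and were not called (adjusted p = 0.881 and 0.0891 by limma). A list of 12 flower and seed markers had none measured. Spike-in controls also differed, since each of 18 hybridisation control probe sets had a lower mean in either line than in wild type, with median log2 differences of -0.26 for OsSAP11 and -0.17 for OsRLCK253. Of 6 pairs of 3′ and 5′ control probe sets, whose log2 ratio follows RNA integrity, 3 had every array of both lines above every wild type array. The differences ranged from -0.139 to 0.305. These pairs cover actin, GAPDH and ubiquitin, each in a version labelled Athal and one labelled r2-At. For each transcript the versions disagreed. The GAPDH differences for OsSAP11 and OsRLCK253 were -0.139 and -0.128 in the Athal version and 0.128 and 0.164 in the other. The part of these markers and controls in the levels of the 60 genes was not tested. In whole seedlings, fewer cells of a type and less RNA per cell cannot be told apart.

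Across the 60 genes the median fold was 2.28 for OsSAP11 and 2.38 for OsRLCK253. The folds ranged from 1.81 to 7.95 in the first line and from 1.85 to 6.19 in the second. The fold was at least 2 in both lines for 39 genes, at least 3 in both for 9 and at least 4 in both for 2. In their wild type mean 54 of 60 exceeded 45.0, the middle value over the whole array without its controls. The rule asked for line means of at least 100, which itself favours genes above that value, so the count follows partly from the choice. The wild type means of the 60 genes ranged from 14.2 to 2347, with 8 genes under 50 and 3 above 1000.

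Replicate arrays kept to their groups for nearly all of the genes. In 58 of 60 genes all 3 arrays of both lines lay above all 3 wild type arrays, against 9.12% of all probe sets. Separately, this held for 60 genes in the OsSAP11 line (17.8% of all probe sets) and for 58 in the OsRLCK253 line (34.0%). These counts describe the choice of the genes and do not test it. The shares over all probe sets also include dim ones, where tiny offsets can part the arrays, so they are no like baseline for the 60 genes. The 2 exceptions were AT2G43620 and AT5G20790. By limma with Benjamini-Hochberg adjustment, 55 genes were called higher in both lines, against 3.87% of all probe sets, and nothing is read from that count because the rule used the same contrasts. Over all probe sets 7.44% were called higher and 5.17% lower in the OsSAP11 line, and 6.95% higher and 6.85% lower in the OsRLCK253 line. AT2G43620, AT5G20790 and AT1G62510 were called in neither line, AT2G23200 was not called in the OsRLCK253 line and AT1G19960 was not called in the OsSAP11 line. Averaged over the 60 genes on the log2(signal + 16) scale, the arrays of the OsSAP11 line stood 1.35, 1.23 and 1.23 above the wild type mean, and those of the OsRLCK253 line 1.31, 1.44 and 1.42. The wild type arrays stood at -0.047, 0.041 and 0.006. Whichever of the 9 arrays was left out, 42 of the 60 genes still met the rule. Leaving out a single array kept between 53 and 58 of them, with the lowest number when wild type replicate 1 was omitted.

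**Figure D1:**
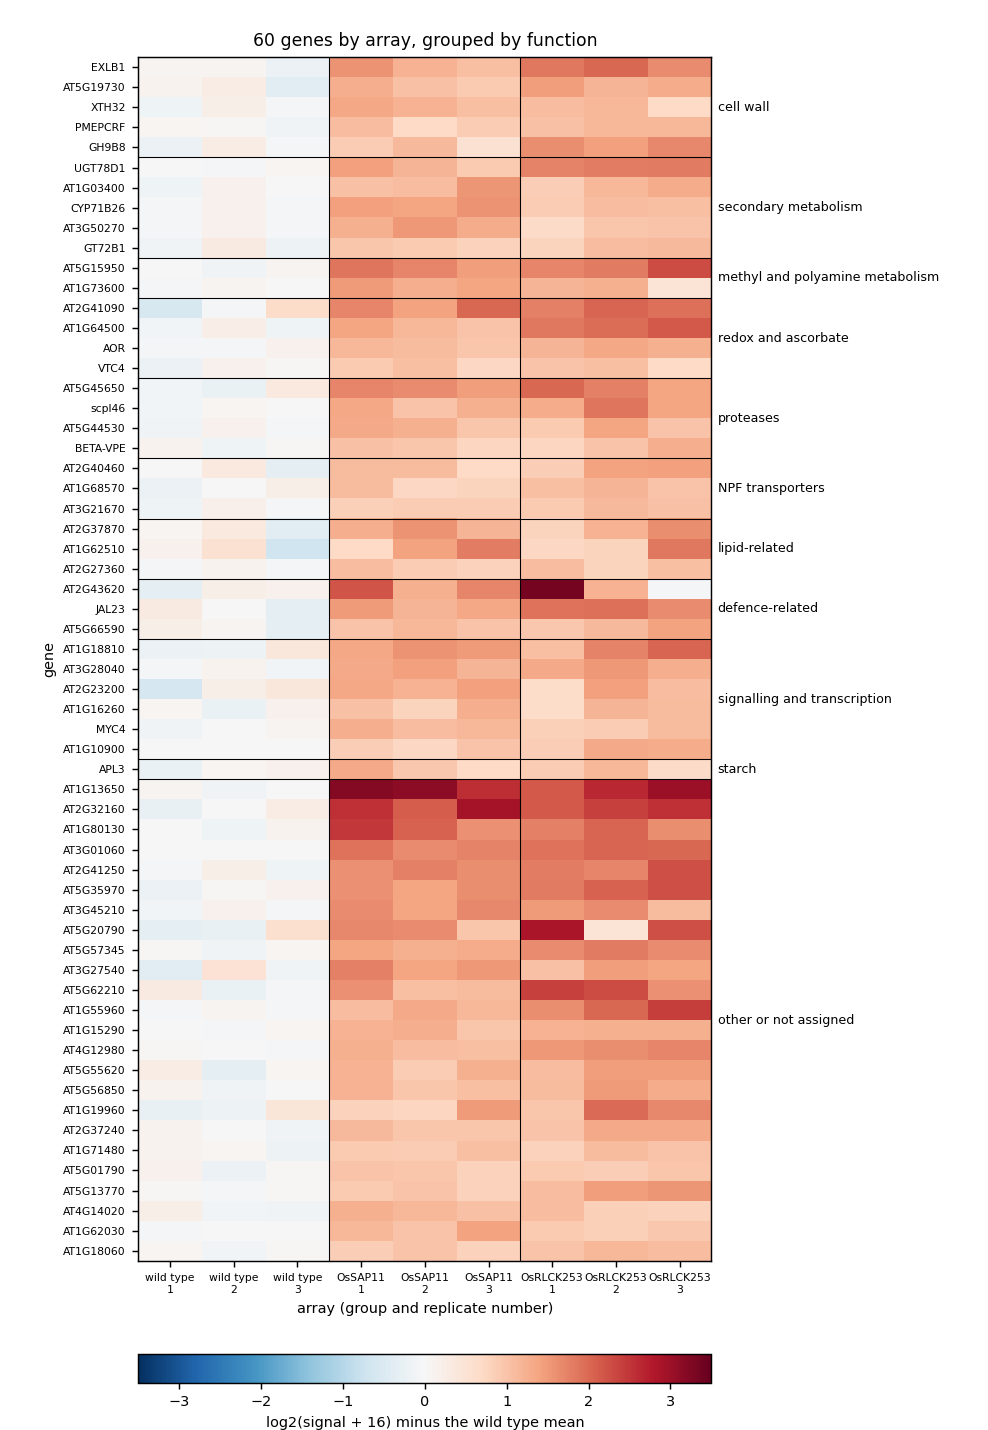
Each row is 1 of the 60 genes and each column 1 of the 9 arrays, and the colour gives log2(signal + 16) minus the mean of the 3 wild type arrays. Both lines are red for nearly every gene, and the palest cells among the line arrays include AT2G43620 on OsRLCK253 replicate 3 and AT5G20790 on OsRLCK253 replicate 2.

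The median coefficient of variation of the 60 genes was 12.5% in wild type, 11.4% for OsSAP11 and 14.5% for OsRLCK253. Over the 4175 probe sets that name 1 gene and have both line means of at least 100, the medians were 8.70%, 7.40% and 9.92%. The 60 genes thus had the larger median spread in each group, and signal level was not matched in this comparison. The rule also chose them by the means of these same arrays, which can favour uneven probe sets, so nothing is read from this difference. A coefficient above 30% was found for 6 genes in wild type, 4 for OsSAP11 and 8 for OsRLCK253.

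The largest folds belonged to AT1G13650 and AT2G32160, which were assigned to no functional group. AT1G13650 had signals of 16.4, 11.9 and 14.3 on the wild type arrays, 261, 246 and 165 on the OsSAP11 arrays and 118, 172 and 222 on the OsRLCK253 arrays. It was dim in wild type, with a mean under 16, no line array overlapped that range, and its folds were 7.95 for OsSAP11 and 6.19 for OsRLCK253. The 16 added to each signal makes these folds smaller than the ratio of the means. AT2G32160 had signals of 25.4, 33.1 and 43.1 on the wild type arrays, 274, 199 and 352 on the OsSAP11 arrays and 204, 241 and 272 on the OsRLCK253 arrays. All 6 line arrays were far above the highest wild type array, and the folds were 5.83 and 5.11. AT1G80130 followed, with signals of 83.7, 72.8 and 91.8 on the wild type arrays, 532, 392 and 283 on the OsSAP11 arrays and 318, 388 and 289.8 on the OsRLCK253 arrays. Its folds were 4.24 and 3.52, and these 3 genes were the only ones of the 9 with a smaller fold of at least 3 that had the higher fold in the OsSAP11 line.

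**Figure D2:**
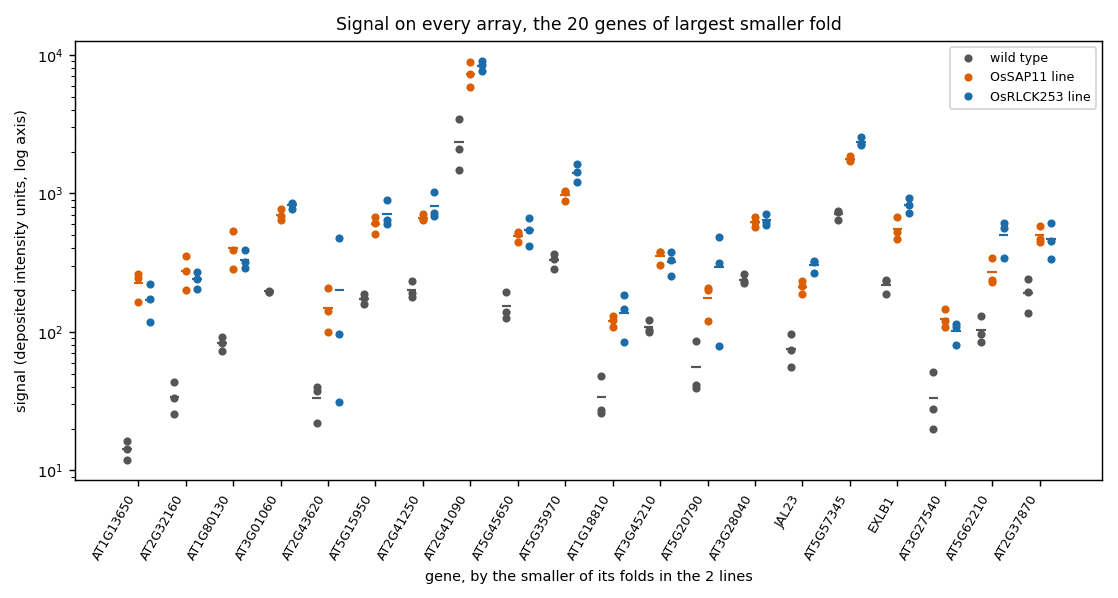
Points are single arrays and short bars are group means of the deposited signal on a log axis, for the 20 genes with the largest smaller fold. Wild type lies below both lines for 18 of these genes, and for AT2G43620 and AT5G20790 an array of the OsRLCK253 line reaches into the wild type range.

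Genes of the cell wall numbered 5, and their folds ranged from 1.81 to 2.44 in the OsSAP11 line and from 1.98 to 3.57 in the OsRLCK253 line. EXLB1, an expansin-like gene of a small wall-protein subfamily, had signals of 235, 232 and 189 on the wild type arrays, 672, 525 and 469 on the OsSAP11 arrays and 822, 922 and 722 on the OsRLCK253 arrays. The 3 groups did not overlap, and the OsRLCK253 line was the highest. XTH32, a xyloglucan endotransglucosylase/hydrolase gene, had 264 ± 35.2 (SD, n = 3) for wild type, 633 ± 65.5 for OsSAP11 and 539 ± 88.1 for OsRLCK253. The pectin methylesterase gene PMEPCRF had 243 ± 17.4 in wild type, 469 ± 64.4 and 549 ± 29.0, in the same order of groups. A further pectinesterase gene, AT5G19730, was dimmer in all groups and had folds of 2.07 and 2.47. GH9B8, of the glycosyl hydrolase family that holds plant endoglucanases, had 65.4 ± 14 for wild type, 131 ± 30.3 for OsSAP11 and 227 ± 20.9 for OsRLCK253. Its call in the OsSAP11 line was lost in 6 of 17 other settings.

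Their relatives did not all move with them. Of 6 measured genes in a list of wall-loosening genes, which holds none of the 60, EXPA8 was called higher in the OsSAP11 line (log2 change 0.55, adjusted p = 0.00613 by limma) and EXPA8 and EXPA4 in the OsRLCK253 line (0.79 and 1.02). None was called lower, and the list had median log2 changes of -0.13 and 0.02, where the median over all probe sets was -0.0021 for OsSAP11 and 0.0137 for OsRLCK253. EXPA4 is among the genes left out by name, and its call (adjusted p = 0.0497 by limma) was lost in 10 of 17 other settings. Among 14 other measured expansin genes by symbol, 4 of which reached a mean of 100 in some group, 1 was higher and 1 lower in the OsSAP11 line, and 4 were higher and 1 lower in the OsRLCK253 line. The lower one in both was EXLA1, an expansin-like A gene, with -1.85 and -2.15 (adjusted p = 0.00575 and 0.00269 by limma). By limma, none of 9 other XTH genes was called in either line (1 in each had an unadjusted p under 0.05), and 2 of these 9 reached a mean of 100. Of 14 other GH9 genes, GH9B7 was called higher in the OsRLCK253 line, with 0.44, and none was called in the OsSAP11 line (0 at an unadjusted p under 0.05). A mean of 100 was reached by 3 of these 14. None of 3 other PME genes was called in either line by limma, with 1 for OsSAP11 and 0 for OsRLCK253 at an unadjusted p under 0.05. Only 1 of these 3 reached a mean of 100.

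Genes of secondary metabolism also numbered 5. UGT78D1 encodes a flavonol rhamnosyltransferase, and its signals were 303, 284 and 314 on the wild type arrays, 846, 699.8 and 582 on the OsSAP11 arrays and 1033, 1074 and 1089 on the OsRLCK253 arrays. The lines did not overlap each other or wild type. CYP71B26, a cytochrome P450 gene, had the opposite order of the lines, with signals of 243, 285 and 241 on the wild type arrays, 715, 694 and 793 on the OsSAP11 arrays and 482, 562 and 549 on the OsRLCK253 arrays. Here too the 3 groups were fully apart. GT72B1, whose product glucosylates phenolic compounds and some xenobiotics, had 443 ± 90.4 (SD, n = 3) for wild type, 833 ± 45.9 for OsSAP11 and 897 ± 121 for OsRLCK253. AT3G50270, of the acyltransferase family with an HXXXD motif, had 98.4 ± 9.82, 278 ± 30.6 and 196 ± 25.0 in that order. AT1G03400, of the oxygenases that use 2-oxoglutarate and iron, had folds of 2.36 and 2.16.

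The flavonoid list had 5 measured genes beside UGT78D1. Of these, DFR, UF3GT and AT4G14090 met the rule and were left out by name, so nothing is read from their calls, which were higher in both lines. The other 2 were not placed by the rule. AT5MAT, an anthocyanin malonyltransferase gene, had log2 changes of 0.41 and 0.93 (adjusted p = 0.521 and 0.0947 by limma) and did not pass. It was dim, with group means of 6.12 for wild type, 13.7 for OsSAP11 and 28.5 for OsRLCK253, where the added 16 makes such changes smaller. UGT78D2, which glucosylates flavonols and anthocyanidins at the same position, was not called in the OsSAP11 line and was called in the OsRLCK253 line, with log2 changes of 0.28 (adjusted p = 0.0879 by limma) and 1.02 (adjusted p = 0.000748 by limma). Tested between the lines, it was higher for OsRLCK253 (log2 difference -0.74, adjusted p = 0.00913 by limma), the direction of UGT78D1. Over 49 other UGT genes, 5 were called higher and 2 lower in the OsSAP11 line and 7 higher and 2 lower in the OsRLCK253 line. Only 19 of the 49 reached a mean of 100 in some group. UGT72B3, called higher in both lines, and UGT84A4, called higher for OsRLCK253, had group means under 50. UF3GT, which met the rule, is among the higher ones in both. The calls of UGT73B5 (lower for OsSAP11) and UGT71C5 (lower for OsRLCK253) were lost in 10 of 16 and 11 of 17 other settings. UGT88A1 was among the higher ones in both lines, with 0.77 and 0.94, and UGT73B1 was lower in both, with -1.26 and -1.28. Of 18 other CYP71B genes, 2 were called higher and 1 lower in the OsSAP11 line and 2 higher in the OsRLCK253 line. Only 6 of these 18 reached a mean of 100 in some group. The lower one, CYP71B22, and CYP71B37, called higher for OsRLCK253, had group means under 16. CYP71B35 was higher in both, with 0.77 and 0.42.

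Metabolism of methyl groups and polyamines was represented by 2 genes. AT5G15950 encodes an S-adenosylmethionine decarboxylase, an early enzyme of spermidine and spermine synthesis, and its signals were 175, 158 and 187 on the wild type arrays, 678, 607 and 507 on the OsSAP11 arrays and 600.1, 644 and 897 on the OsRLCK253 arrays. The lowest line array was well above the highest wild type array, and the folds were 3.24 and 3.86. AT1G73600 encodes a phosphoethanolamine methyltransferase, which makes precursors of phosphatidylcholine. Its mean signals were 1830.0 ± 106 (SD, n = 3) for wild type, 4797 ± 325 for OsSAP11 and 3698 ± 1015 for OsRLCK253. On OsRLCK253 replicate 3 it stood at 2532, below the other line arrays and above wild type.

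The 4 genes of ascorbate and redox chemistry had folds from 1.86 to 3.11 in the OsSAP11 line and from 1.89 to 3.93 in the OsRLCK253 line. AT2G41090, a calmodulin-like gene whose product is known to bind an enzyme of ascorbate synthesis, was the brightest of the 60. Its signals were 1483, 2091 and 3467 on the wild type arrays, 7249, 5866 and 8889 on the OsSAP11 arrays and 7586, 9074 and 8439.9 on the OsRLCK253 arrays. Wild type varied more than 2-fold among its arrays and stayed below both lines. AT1G64500, a glutaredoxin gene, had signals of 75.8, 97.8 and 72.5 on the wild type arrays, 236, 202 and 177 on the OsSAP11 arrays and 333, 361 and 413 on the OsRLCK253 arrays, with no overlap among the 3 groups. AOR, the alkenal/one oxidoreductase gene that acts on reactive carbonyls in chloroplasts, had 1193 ± 116 (SD, n = 3) for wild type, 2537 ± 168 for OsSAP11 and 2869.8 ± 184 for OsRLCK253. VTC4, the gene of L-galactose-1-phosphate phosphatase in ascorbate synthesis, had 317 ± 39.9, 602 ± 66.2 and 614 ± 80.6.

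Protease genes numbered 4. AT5G45650, a subtilase gene, had signals of 139, 125 and 195 on the wild type arrays, 529, 511 and 444 on the OsSAP11 arrays and 659.7, 546 and 415 on the OsRLCK253 arrays, and both lines lay above wild type with overlap between them. The other subtilase gene, AT5G44530, had folds of 2.28 and 2.15 from a wild type mean of 46.9 ± 6.43 (SD, n = 3). The serine carboxypeptidase-like gene scpl46 had 87.7 ± 5.83 for wild type, 223 ± 29.9 for OsSAP11 and 284 ± 66.4 for OsRLCK253. BETA-VPE, a vacuolar processing enzyme best known from seed storage protein maturation, had 100.5 ± 10.4, 205 ± 22.8 and 219.8 ± 42.7. Of 7 other measured vacuolar protease genes in a list, AT1G62290, an aspartic protease gene, was called higher in the OsSAP11 line (log2 change 1.97, adjusted p = 0.000678 by limma). None was called in the OsRLCK253 line by limma (1 at an unadjusted p under 0.05), and the median log2 changes over the list were -0.001 and 0.004. Only 4 of these 7 reached a mean of 100 in some group. The other 3 vacuolar processing enzyme genes were not called in either line (0 at an unadjusted p under 0.05), and GAMMA-VPE, with the highest signal of these, had -0.21 and -0.24. Only 1 of these 3 reached a mean of 100, so the dim ones tell little. Of 22 other scpl genes, scpl29 was called higher in both lines, with 0.57 and 0.52, and no other was called. A mean of 100 in some group was reached by 8 of these 22.

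The 3 transporter genes of the NPF family had folds from 1.81 to 1.94 in the OsSAP11 line and from 2.03 to 2.36 in the OsRLCK253 line. AT3G21670 (NPF6.4), a nitrate transporter gene, had 629.5 ± 77.6 (SD, n = 3) for wild type, 1149.7 ± 22.9 for OsSAP11 and 1295 ± 106 for OsRLCK253. AT1G68570 (NPF3.1), whose product transports nitrite and gibberellin, had 397 ± 56.8, 743 ± 115 and 852 ± 56.0. AT2G40460 had folds of 1.94 and 2.36, and its call in the OsSAP11 line was lost in 10 of 17 other settings. Of 9 other measured NPF genes, 2 were called higher in each line and none lower, and 3 of the 9 reached a mean of 100. These 2 were GTR2, a glucosinolate transporter gene, with log2 changes of 0.35 and 0.32, and AT2G26690, with 0.52 and 0.35. GTR1, the partner of GTR2 in glucosinolate loading, had -0.14 and -0.12 and did not pass. The call of GTR2 was lost in 9 of 17 other settings in each line, and that of AT2G26690 in the OsRLCK253 line in 9.

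**Figure D3:**
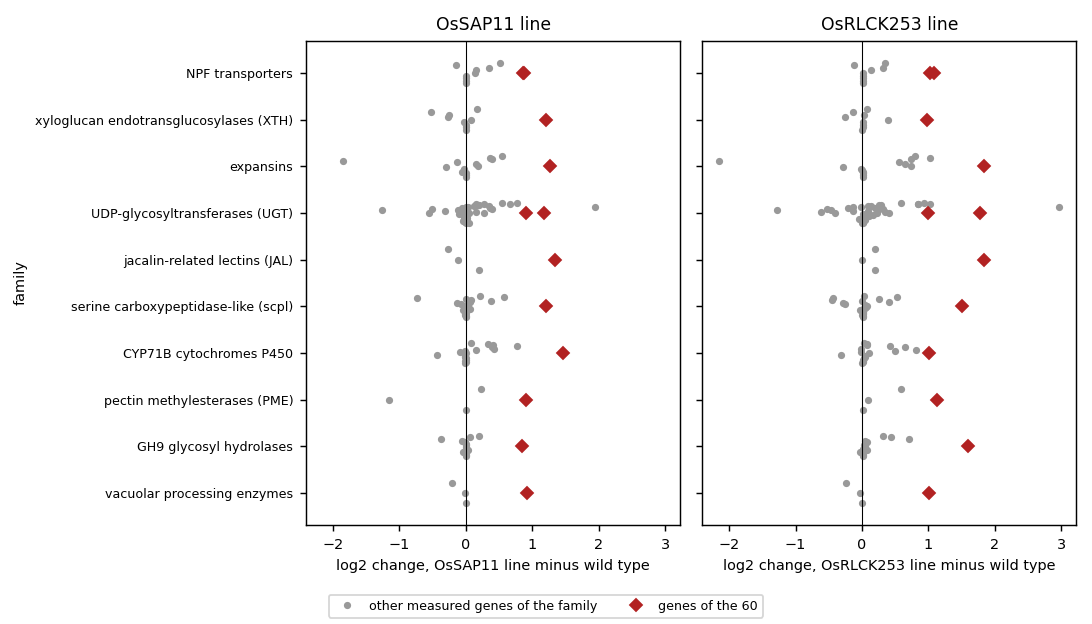
Diamonds are genes of the 60 and grey points the other measured genes of the same family, named by symbol or synonym, placed by their log2 change in each line. The diamonds were placed there by the rule, and most grey points lie near 0, many of them with signals near background.

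Lipid-related genes were AT2G37870 and AT1G62510, both of the lipid-transfer protein family, and AT2G27360, a GDSL esterase gene. AT2G37870 had signals of 194, 241 and 136 on the wild type arrays, 470.1, 582 and 446 on the OsSAP11 arrays and 333, 450 and 612 on the OsRLCK253 arrays, and its folds were 2.50 and 2.33. AT1G62510 varied widely inside each group, with signals of 266, 353 and 140.3 on the wild type arrays, 392, 661 and 863 on the OsSAP11 arrays and 403, 416 and 901 on the OsRLCK253 arrays. No line array fell into the wild type range, yet the lowest was close to the highest wild type array, and neither line was called. AT2G27360 was steadier, with 65.3 ± 6.12 (SD, n = 3), 139 ± 14.6 and 144 ± 18.5 for wild type, OsSAP11 and OsRLCK253.

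Among the 3 genes of defence-related families, JAL23, a jacalin-related lectin gene, had signals of 95.7, 73.5 and 56.0 on the wild type arrays, 235, 188 and 213 on the OsSAP11 arrays and 317, 323 and 268 on the OsRLCK253 arrays. Its lines did not overlap, and the OsRLCK253 line was higher. AT2G43620, a chitinase family gene, had signals of 22.0, 40.1 and 37.3 on the wild type arrays, 208, 99.6 and 142 on the OsSAP11 arrays and 474, 97.0 and 31.2 on the OsRLCK253 arrays. Of its OsRLCK253 arrays, replicate 1 was far above the others and replicate 3 lay within the wild type range, so that the mean of that line rests on replicate 1. AT5G66590, of the secreted CAP family that also holds PR1, had folds of 2.06 and 2.24. The 3 other measured JAL genes all had group means above 100, and by limma none was called in either line (0 at an unadjusted p under 0.05). In the salicylic acid list, 1 of 3 measured genes was called higher in each line. It was AT5G03350, a lectin gene left out by name after it met the rule, with log2 changes of 2.68 and 3.26 (adjusted p = 0.0468 and 0.0221 by limma), and these calls were lost in 10 and 5 of 17 other settings. The other genes, GRX480 and SAG101, had group means under 50 and log2 changes of -0.01 and 0.05 for OsSAP11 and 0.15 and 0.01 for OsRLCK253 and did not pass.

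Signalling genes numbered 6. AT3G28040, a leucine-rich repeat receptor kinase gene, had signals of 232, 259 and 224 on the wild type arrays, 623, 674 and 568 on the OsSAP11 arrays and 624, 711 and 595 on the OsRLCK253 arrays. The lines overlapped, and both stood clear of wild type. AT1G18810, a relative of the phytochrome kinase substrate genes, had signals of 26.1, 27.2 and 47.8 on the wild type arrays, 108, 129 and 121 on the OsSAP11 arrays and 84.9, 146 and 183 on the OsRLCK253 arrays. Its lines overlapped above the wild type range. MYC4, a transcription factor gene of jasmonate responses, had 69.9 ± 6.49 (SD, n = 3) for wild type, 177 ± 12.4 for OsSAP11 and 149 ± 16.2 for OsRLCK253. The wall-associated kinase-like gene AT1G16260 had folds of 2.04 and 2.00, and the phosphatidylinositol phosphate kinase gene AT1G10900 had 1.82 and 2.26. AT2G23200, of the receptor kinases related to FERONIA, had signals of 23.6, 53.6 and 62.3 on the wild type arrays, 138, 123 and 147 on the OsSAP11 arrays and 77.2, 147 and 111 on the OsRLCK253 arrays, and the call was missing in the OsRLCK253 line.

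Of 51 genes in the list of light signalling and the clock, only 7 were measured. Of these 7, 2 were called higher and 3 lower in the OsSAP11 line and 3 higher and 3 lower in the OsRLCK253 line. COR27, a cold-induced gene tied to the clock, fell in both lines, with log2 changes of -2.43 and -4.82 (adjusted p = 0.000737 and 5.66e-05 by limma). GI, the GIGANTEA gene of the clock and of flowering time, also fell, with -0.67 and -1.69, and its call in the OsSAP11 line was lost in 8 of 17 other settings. AT4G33980, related to COR27, fell as well, with -2.14 and -3.80. The higher ones include AT3G44450, left out by name after it met the rule. The measured genes moved in both directions, and their medians were 0.06 and 0.04. None of the 60 genes is in the list. Of the 5 measured genes of light harvesting and carbon fixation, 3 were called higher for OsSAP11 and 4 for OsRLCK253. Among them was LHCB4.2, an antenna protein gene, with 0.74 and 0.78. PRK, the phosphoribulokinase gene, is counted in both lines with 0.24 and 0.24, and its call was lost in 7 of 17 other settings in each.

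APL3, a large subunit gene of ADP-glucose pyrophosphorylase in starch synthesis, had 62.7 ± 10.7 (SD, n = 3) for wild type, 141 ± 34.3 for OsSAP11 and 132 ± 24.8 for OsRLCK253. Its call was lost in 5 of 17 other settings in each line. Of 11 other measured genes of sugar transport and starch, 4 were called higher and 1 lower in each line, with median log2 changes of 0.38 and 0.13. The higher ones in both lines include SAG29, left out by name after it met the rule, with 3.66 and 2.19. The call of SWEET17 for OsSAP11 was lost in 9 of 17 other settings and that of SWEET1 for OsRLCK253 in 6. SWEET11, a sucrose transporter gene, had 0.38 (adjusted p = 0.0733 by limma) for OsSAP11 and 0.65 (adjusted p = 0.0105 by limma) for OsRLCK253. ATSPS4F, a sucrose phosphate synthase gene, fell in the OsSAP11 line, with -0.84 (adjusted p = 0.00317 by limma), and had 0.13 (adjusted p = 0.404 by limma) for OsRLCK253. DPE1, a glucanotransferase gene of starch breakdown, had -0.25 (adjusted p = 0.26 by limma) in the OsSAP11 line and fell in the OsRLCK253 line, with -1.26 (adjusted p = 0.0011 by limma).

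The remaining 24 genes were assigned to no group. AT3G01060 had signals of 194, 197 and 196 on the wild type arrays, 767, 647 and 692 on the OsSAP11 arrays and 775, 852 and 832 on the OsRLCK253 arrays. The wild type arrays were nearly equal, the 3 groups did not overlap, and the folds were 3.39 and 3.95. AT2G41250 had signals of 192, 232 and 179 on the wild type arrays, 637, 714 and 656 on the OsSAP11 arrays and 724, 688 and 1019.9 on the OsRLCK253 arrays, so that 5 of the 6 line arrays lay between 637 and 724. AT5G35970 had signals of 283, 337 and 367 on the wild type arrays, 1017, 878 and 1042 on the OsSAP11 arrays and 1206, 1414 and 1619 on the OsRLCK253 arrays, with the OsRLCK253 line wholly above the OsSAP11 line. AT3G45210 had signals of 100.3, 121 and 103 on the wild type arrays, 377, 305 and 379.7 on the OsSAP11 arrays and 328, 375 and 252 on the OsRLCK253 arrays. Here the lines overlapped and neither reached the wild type range.

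AT5G20790 was uneven, with signals of 39.5, 41.2 and 85.6 on the wild type arrays, 206, 199 and 119 on the OsSAP11 arrays and 484, 79.7 and 313 on the OsRLCK253 arrays. The lowest OsRLCK253 array lay below the highest wild type array. AT3G27540 had signals of 20, 51.2 and 27.8 on the wild type arrays, 146, 108 and 119.8 on the OsSAP11 arrays and 80.5, 114 and 108 on the OsRLCK253 arrays, and AT5G62210 had signals of 131, 83.8 and 97.0 on the wild type arrays, 342, 229.9 and 237 on the OsSAP11 arrays and 608, 563 and 339 on the OsRLCK253 arrays. Both lines were above wild type in each, with overlap between the lines. AT5G57345 had signals of 731, 645 and 739.8 on the wild type arrays, 1856, 1701 and 1758 on the OsSAP11 arrays and 2259, 2547 and 2234 on the OsRLCK253 arrays. AT4G12980 had signals of 94.4, 91.5 and 85.7 on the wild type arrays, 237, 210.3 and 206 on the OsSAP11 arrays and 291, 310.2 and 335 on the OsRLCK253 arrays, and in both of these genes the 3 groups were apart. AT1G19960, not called in the OsSAP11 line, had 399 ± 114 (SD, n = 3) for wild type, 829 ± 255 for OsSAP11 and 1213 ± 399.7 for OsRLCK253. For 12 genes with no group, AT1G19960 included, the folds ran from 1.85 to 2.29 in the OsSAP11 line and from 1.86 to 4.16 in the OsRLCK253 line. AT1G55960, with the highest OsRLCK253 fold of these, had 168 ± 12.2 (SD, n = 3) for wild type, 401 ± 36.3 for OsSAP11 and 748 ± 212 for OsRLCK253.

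**Figure D4:**
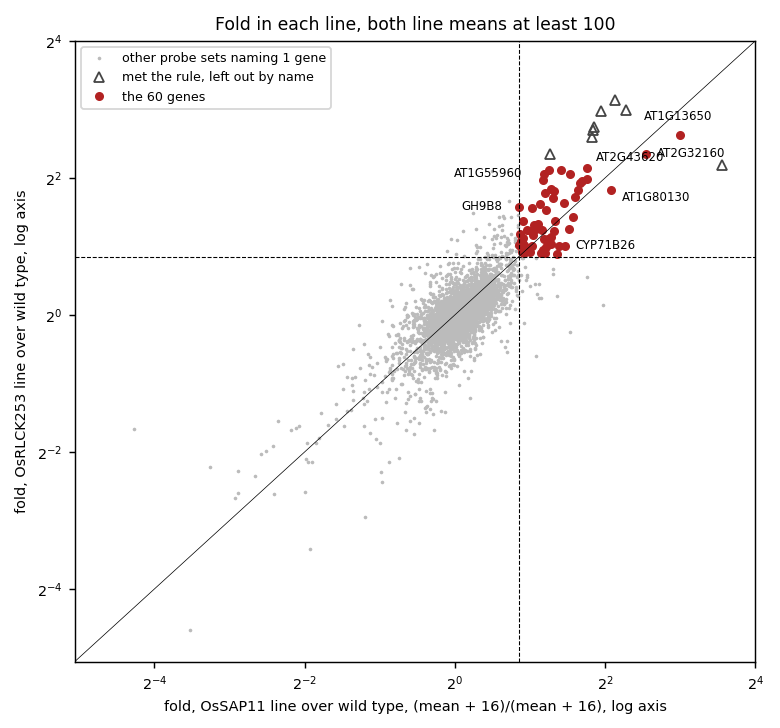
Each point is a probe set that names 1 gene and has both line means of at least 100, placed by its fold in the OsSAP11 line (horizontal) and by its OsRLCK253 fold (vertical), on log axes. Dashed lines mark the fold of 1.8, red points are the 60 genes and triangles the 8 genes that met the rule and were left out by name.

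The rule set a floor in each line but no limit on the difference between the lines, so that difference was tested. By limma over all 22746 probe sets, 5 of the 60 genes (8.33%) differed between the OsSAP11 line and the OsRLCK253 line, against 5.21% of all probe sets. Among the 4175 probe sets that name 1 gene and have both line means of at least 100, the share was 8.43%. The count for the 60 genes is therefore near the background. AT1G64500 had a log2 difference of -0.80 (SE 0.14, adjusted p = 0.0263), taken as the OsSAP11 line minus the OsRLCK253 line. AT4G12980 had -0.49 (SE 0.07, adjusted p = 0.0146), AT5G57345 -0.40 (SE 0.07, adjusted p = 0.0302) and UGT78D1 -0.59 (SE 0.12, adjusted p = 0.0448). These 4 were higher in the OsRLCK253 line, against 1.87% of all probe sets. CYP71B26 was higher in the OsSAP11 line, with 0.46 (SE 0.09, adjusted p = 0.0373), against 3.34% of all probe sets. These 2 shares by direction include dim probe sets and were not taken among the 4175 bright ones, so no excess in either direction is read from them. In each of the 5 genes the arrays of the lines were fully apart, as they were for 17 of the 60 genes and for 50.6% of all probe sets. That last share includes dim probe sets, where a tiny offset can part the arrays. DELTA-VPE, for example, had 3.88 ± 0.0158 (SD, n = 3) for OsSAP11 and 3.95 ± 0.0220 for OsRLCK253. It is therefore no like baseline for the 60 genes, and nothing is read from the comparison.

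None of the 5 calls held under every setting. When OsSAP11 replicate 2 or OsSAP11 replicate 3 was left out, 0 of the 60 genes were called by limma (15 in each case at an unadjusted p under 0.05), and without OsRLCK253 replicate 2 or OsRLCK253 replicate 3 only 1 was. A limma fit of both lines without wild type also called 0 (18 at an unadjusted p under 0.05, against 17 in the fit of all arrays). Omitting wild type replicate 1 gave 2, and omitting wild type replicate 3 gave 3. The sizes of the differences moved less than the calls: over the 17 other settings AT4G12980 stayed between -0.55 and -0.44 and kept its call in 13, and CYP71B26 stayed between 0.39 and 0.50 and kept its call in 5.

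For the 55 genes not called between the lines the log2 differences ranged from -0.84 to 0.47. In 48 of them the 95% interval, which is not adjusted for the number of genes, lay within a 2-fold difference in either direction, and in 7 it reached further. AT1G55960 had a difference of -0.84 with a 95% interval from -1.29 to -0.39, and GH9B8 had -0.74 with a 95% interval from -1.17 to -0.31. VTC4 had -0.03 with a 95% interval from -0.35 to 0.30, and AT5G01790 had 0.01 with a 95% interval from -0.22 to 0.24. For AT2G43620 the interval ran from -1.68 to 2.11, so that this gene gives little information on the order of the lines. A p that misses the threshold does not show that the lines had equal levels.

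As a description with no test, 39 of the 60 genes (65.0%) had a higher mean log2 level in the OsRLCK253 line and 21 in the OsSAP11 line. Among the 4175 bright probe sets naming 1 gene, 44.0% were higher in the OsRLCK253 line. With each array centred on its median these shares were 68.3% and 50.8%, so the share over all bright probe sets turned to the other side of 50% with the scaling while the majority of the 60 genes stayed on the same side. The median difference of the 60 genes was -0.12, and that of the bright probe sets was 0.0367. The number of the 60 genes higher in the OsRLCK253 line ran from 37 to 41 when each array was left out in turn.

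**Figure D5:**
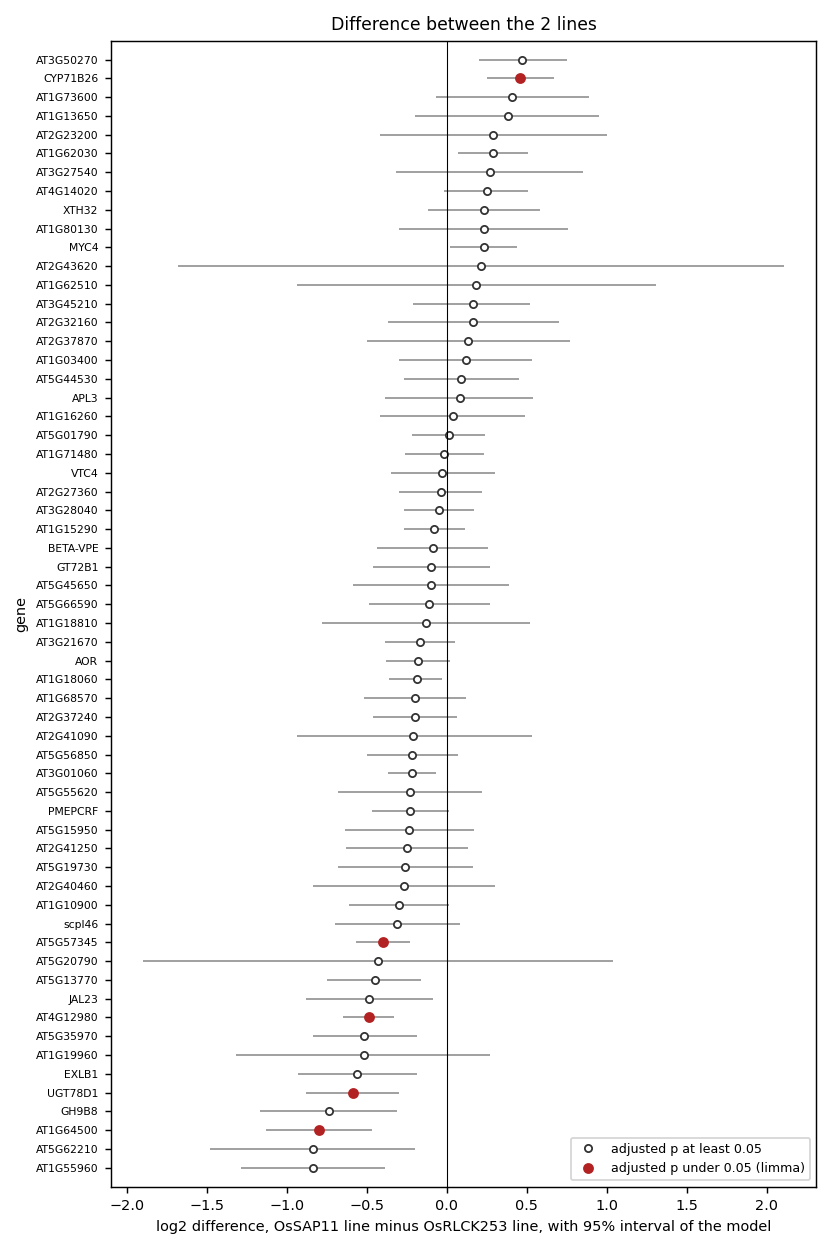
Points are the log2 difference of each of the 60 genes, OsSAP11 line minus OsRLCK253 line, with the 95% interval of the limma model. Filled points are the 5 genes with an adjusted p under 0.05, of which 4 lie left of 0 (higher in the OsRLCK253 line) and CYP71B26 lies right of it.

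The genes were spread over all 5 chromosomes, with 19, 13, 8, 6 and 14 on chromosomes 1 to 5. In percent of the 60 genes these were 31.7, 21.7, 13.3, 10 and 23.3, against 25.8, 16.4, 20.6, 14.6 and 22.6 of all measured genes. In the order of protein-coding genes along the chromosomes, no pair of the 60 lay within 10 genes of each other. None of the 60 genes has a further probe set that names it, so each level rests on 1 probe set.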

How the data were processed

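RNA of 9 seedling samples was measured on Affymetrix arrays. The values the authors deposited are intensities, 1 linear signal per probe set and array, from 3.17 to 43695. GCOS is named in the submitters' processing notes, and the sources used here do not state the summarisation or scaling. Array medians differed by 0.0777 on the log2(signal + 16) scale, and no scaling was added.

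Of 22810 probe sets, 64 controls were set aside and 22746 tested. Of these, 13513 name 1 gene, 503 several and 8730 none in the tables used, and 13436 matched RefSeq (TAIR10.1). limma 3.58.1 in R 4.3.3 was fitted to log2(signal + 16), 1 mean per group, all 9 arrays, 6 residual degrees of freedom. Tests are two-sided, with Benjamini-Hochberg adjustment over all probe sets tested and calls at 0.05. The procedure was tested on simulated data. The p-values measure the spread between arrays labelled biological replicates, whose separate origin the labels do not detail, and the number of arrays limits the precision.

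The members, gene lists and functional groups were chosen with earlier results of these data known. Any member could be named, with every array's value for the 20 of largest smaller fold and those called between the lines; list genes were named among the 4 of highest mean signal over all arrays, and the choice within these was made after values were seen. SAG29 and SWEET1 of the sugar list and AT5MAT of the flavonoid list fall outside this and were also chosen after values were seen. Families by symbol, the genes named from them, members given in addition with every array's value and the order of the lines were chosen after values were seen. No sequence was used, so the planned promoter motif search was not run. A list gene counted as measured only where a probe set named it and no other gene, so the lists were covered in part. They held 35 genes of light harvesting and carbon fixation, 51 of light signalling and the clock and 23 of wall loosening. Further lists held 27 flavonoid, 38 sugar and starch, 17 salicylic acid and 12 vacuolar protease genes, and 11 root and 5 epidermal markers. Among the lists not described above, 0 of 12 nitrogen assimilation genes were measured. Of 19 chlorophyll genes 2 were measured, with 1 lower in the OsRLCK253 line. Of 26 auxin and shade genes 4 were measured, with 2 higher in the OsSAP11 line and 1 lower in the OsRLCK253 line. Of 26 sulfur and glucosinolate genes 3 were measured, with 2 higher in each line. Of the auxin and shade calls, HAT2 was lost in 14 of 17 other settings for OsSAP11 and in 13 for OsRLCK253, and IAA29 in 9 of 16. IAA29 was dim, with 4.65 ± 0.182 (SD, n = 3) for wild type and 7.71 ± 1.55 for OsSAP11. The glucosinolate list's AT2G31790 was lost in 7 of 17 for OsSAP11 and in 5 for OsRLCK253.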

Additional observations from a re-analysis of the deposited data

How the results depend on the processing

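The number of genes meeting the rule, 60, was 56 to 66 with 1 array left out in turn, 58 after quantile normalization, 59 with median centring, 73 and 50 with 1 and 32 in place of 16, and 71 with a floor of 50 on the line means. A fold of 1.5 gave 140 genes and a fold of 2 gave 39. The genes differing between the lines numbered 13 when only probe sets with a mean of at least 50 in some group were tested, 9 with a trend and a robust prior, 0 in a fit of the 2 lines alone, and 0 to 6 with 1 array left out. Over all probe sets, 1185 differed between the lines, and this count was 1935 with the filter on dim probe sets, 1809 with the trend, 609 in the fit of the 2 lines alone, and 449 to 1388 with 1 array left out. The share of these that were higher in the OsSAP11 line was 64.1%, and 50.2% with median centring. It was 57.5% after quantile normalization, 49.8% with the trend and robust prior and 48.6% without OsRLCK253 replicate 1. The counts against wild type were 2869 for the OsSAP11 line, 1827 to 2875 with 1 array left out (1827 when wild type replicate 1 was omitted, 1863 for OsSAP11 replicate 1 and 1887 for OsSAP11 replicate 2), and 3138 for the OsRLCK253 line, 2040 to 3387, lowest when wild type replicate 1 was omitted. Replicate numbers did not pair the arrays: deviations of arrays with the same number correlated at -0.127 to 0.181 over 9 pairs. With replicate number as a block, 639 probe sets and 2 of the 60 genes differed between the lines, and none of these 2 was among the 5. Of the genes called against wild type in both lines, 45 of 55 kept both calls in all 9 fits with 1 array left out. Nothing is read from this count, because the rule used the same contrasts and the same share was not taken over all probe sets. No called log2 change of a named gene against wild type turned its sign under the 17 settings run. Neither did the differences of the 5 genes called between the lines. The difference of UGT78D2 between the lines was not run through these settings. The cause of the other changes was not tested, apart from the smaller number of samples or probe sets that a setting itself brings.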
